A study of Mus musculus with 5 samples.

Results

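Long RNAPII domains are stretches of 5 kb or more that RNA polymerase II (RNAPII), the enzyme that transcribes protein-coding genes, occupied without a gap in primary mouse mammary epithelial cells. Touching or overlapping peaks of the RNAPII peak list were joined, and joined domains of 5000 bp or more were kept. This gave 419 domains of 7406 joined RNAPII domains in all. They were therefore chosen by RNAPII peak length, and their length and RNAPII score are given as a description. The NELF-A, NELF-B and DRIP peaks on them had no part in the choice.

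The cells were isolated from mammary glands of virgin, mixed-strain mice that were 6 to 8 weeks old. They were profiled by ChIP-seq for RNAPII, NELF-A and NELF-B and by DRIP-seq, which pulls down R-loops with an antibody. Going by the sample titles, the RNAPII and DRIP lists each stand for 2 libraries, the lists of NELF-A and NELF-B for 1 library each, and the NELF antibodies were homemade. PCR amplification ran for 15 cycles in RNAPII and DRIP libraries and for 18 cycles in those of both NELF subunits. No input control is given in the sources used here, and a DRIP sample treated with RNase H, an enzyme that digests RNA paired with DNA, was not analysed here. No DRIP peak could therefore be tested for loss under RNase H, the mice per library are not stated, and each target has 1 list with no spread between replicates. Intervals are 95% Wilson intervals for a share and 95% Newcombe intervals for a difference of shares, and they cover counting error only. Neighbouring domains are not independent, so these intervals may be too narrow. The sequencing depth is unknown. Positions are in mm9, and a score is the authors' own value per peak, whose unit is not stated.

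NELF, the negative elongation factor, is a complex of several subunits that holds RNAPII paused soon after transcription has started; its release lets RNAPII move on through the gene. NELF-A and NELF-B are subunits of that complex, and NELF-B is also known as COBRA1, a protein that binds BRCA1. An R-loop is a hybrid of RNA with its DNA template that leaves the other DNA strand unpaired, and R-loops form during transcription.

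The 419 long domains covered 4.51 Mb, which was 33.7% of all sequence under RNAPII peaks. Their median length was 7750 bp, with quartiles of 6000 and 12500 bp and a maximum of 51750 bp. Of them, 329 were single peaks in the list and 90 were joined from touching peaks, of which 68 held 2 peaks, 17 held 3 and 5 held 4. The RNAPII score per kb had a median of 394 in long domains, 321 in the 677 domains of 2.5 to 4.75 kb and 238 in the 6310 domains under 2.5 kb. Around the threshold, the 28 domains of exactly 5000 bp had a median score per kb of 344, and NELF-A was on 21 of them, NELF-B on 11 and DRIP on 16. The 26 domains of 4750 bp, 1 step of the 250 bp grid shorter, had a median of 336, and NELF-A was on 17, NELF-B on 14 and DRIP on 14. Long domains lay on all 20 chromosomes with peaks. Chromosome 11 carried 47 of them and chromosome 1 carried 42, and they made up between 2.63% of the joined domains of chromosome 14 and 8.86% of those of chromosome 1.

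Long domains held NELF-A about as often as RNAPII domains in general, and held NELF-B and R-loop signal more often. NELF-A peaks overlapped 325 of the 419 (77.6%, 73.3 to 81.3%), where 74.6% of all joined RNAPII domains had one. NELF-B peaks overlapped 251 (59.9%, 55.1 to 64.5%), against 39.7% of all joined domains. DRIP peaks overlapped 321 (76.6%, 72.3 to 80.4%), against 22.2% of all joined domains. A longer domain has more room for a peak, so the nearest comparison is with the next shorter domains of 2.5 to 4.75 kb. The share with DRIP was 76.6% in long and 50.4% in next shorter domains, a difference of 26.2 percentage points (20.5 to 31.6). The share with NELF-B was 59.9% in long and 46.5% in next shorter domains (13.4 points, 7.30 to 19.3). The share with NELF-A was 77.6% in long and 70.3% in next shorter domains (7.26 points, 1.88 to 12.4).

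Counted per length, the order turned round for NELF. Long domains had 1.06 NELF-A peaks per 10 kb, the next shorter domains 2.61 and the domains under 2.5 kb 7.22. For NELF-B the densities were 0.667, 1.60 and 3.61 peaks per 10 kb in the same order. DRIP peaks changed least, with 1.71 per 10 kb in long domains, 2.20 in the next shorter ones and 1.76 in those under 2.5 kb. Peaks of NELF-A covered 14.5% of the length of long domains and 33.9% of that of next shorter domains. DRIP peaks covered 33.5% of the length of long domains and 26.7% of that of next shorter ones. A NELF-A peak was 1250 bp wide at the median in both groups, with a median score of 52 in long and 48.5 in next shorter domains. A DRIP peak was 1500 bp wide in long and 1250 bp in next shorter domains. NELF thus occupied a smaller part of long domains, whereas the covered part of DRIP was no smaller.

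The 3 marks fell into few combinations. All 3 were present on 223 long domains (53.2%). NELF-A and DRIP without NELF-B marked 46, NELF-A and NELF-B without DRIP 28, NELF-A alone 28, DRIP alone 52, and 42 domains held none of the 3. No long domain held NELF-B without NELF-A. The shares of these combinations over all joined RNAPII domains were not computed, so none can be called a trait of long domains. Where NELF-B was listed, the highest NELF-A score of the domain had a median of 94 over 251 domains. In the 74 domains with NELF-A and no NELF-B peak it was 26.5. The lowest score in the NELF-B list was 7 and in the NELF-A list 9, and how these limits were set is not given in the sources used here.

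Most long domains held a single NELF-A peak. The number was 1 in 218 domains, 2 in 80, 3 in 16, 4 in 7, 5 in 1 and 6 in 3. NELF-B was present as 1 peak in 209 domains, 2 in 37, 3 in 3, 4 in 1 and 5 in 1. DRIP peaks were more often multiple, with 1 peak in 114 domains, 2 in 101 and 3 or more in 106, up to 11 in 1 domain. The numbers moved apart with length. Domains of 5 to 7.25 kb (184) had 0.924 NELF-A and 1.17 DRIP peaks each, those of 7.5 to 12.25 kb (127) had 1.08 and 1.61, and those of over 12.25 kb (108) had 1.57 and 3.28. Per 10 kb, NELF-A fell from class to class, at 1.56, 1.17 and 0.755 peaks, while DRIP stood at 1.98, 1.74 and 1.57.

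Neighbouring NELF-A peaks in a domain were centred a median of 2000 bp apart (152 pairs, quartiles 1375 and 3781.25 bp), and 28 of these pairs touched. Successive NELF-B peaks were 1750 bp apart (50 pairs). Successive DRIP peaks were 2750 bp apart (453 pairs, quartiles 1625 and 4500 bp), and 73 pairs touched. From the first to the last peak of a domain, NELF-A spanned a median of 2875 bp in 107 domains and DRIP 4875 bp in 207 domains. NELF-B lay on NELF-A: 295 of 301 NELF-B peaks (98.01%) overlapped a NELF-A peak, and 259 (86.0%) were centred within 500 bp of a NELF-A centre. The whole lists held 3925 NELF-B and 10782 NELF-A peaks. The same share over all NELF-B peaks was not computed, so this cannot be called a trait of long domains.

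Both NELF subunits sat near the domain ends and DRIP did not. Of the NELF-A peaks centred inside a domain, 332 of 471 (70.5%, 66.2 to 74.4%) lay in the outer 20% at either end. These zones make up 40% of the length. The NELF-B peaks there were 234 of 297 (78.8%, 73.8 to 83.1%), and the DRIP peaks 281 of 718 (39.1%, 35.6 to 42.8%). Overlapping peaks centred outside the domain were left out: 6 of 477 for NELF-A, 4 of 301 for NELF-B and 56 of 774 for DRIP. Counted as at an end, they would raise the DRIP share most. In base pairs, the median distance from the peak centre to the nearest end was 1125 bp for NELF-A, 1000 bp for NELF-B and 2500 bp for DRIP. Within 2000 bp of an end lay 73.5% of NELF-A, 82.8% of NELF-B and 39.7% of DRIP peaks.

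The highest-score NELF-A peak lay at a similar distance from the end whatever the length of the domain. This highest-score NELF-A peak was centred a median of 750 bp from the nearest end in domains of 5 to 7.25 kb, 1000 bp in those of 7.5 to 12.25 kb and 937.5 bp in those of over 12.25 kb. As a share of the length this was 13.6%, 9.72% and 5.33%. Over all NELF-A peaks centred inside a domain the distance did grow, with medians of 875, 1187.5 and 1500 bp, and the share within 2000 bp of an end was 88.0%, 75.7% and 57.4%. The highest-score NELF-B peak lay at 875, 1000 and 937.5 bp in the same 3 classes. The highest-score DRIP peak lay at 1375, 2000 and 3312.5 bp, which was 24.4%, 22.7% and 17.5% of the length.

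**Figure D1:**
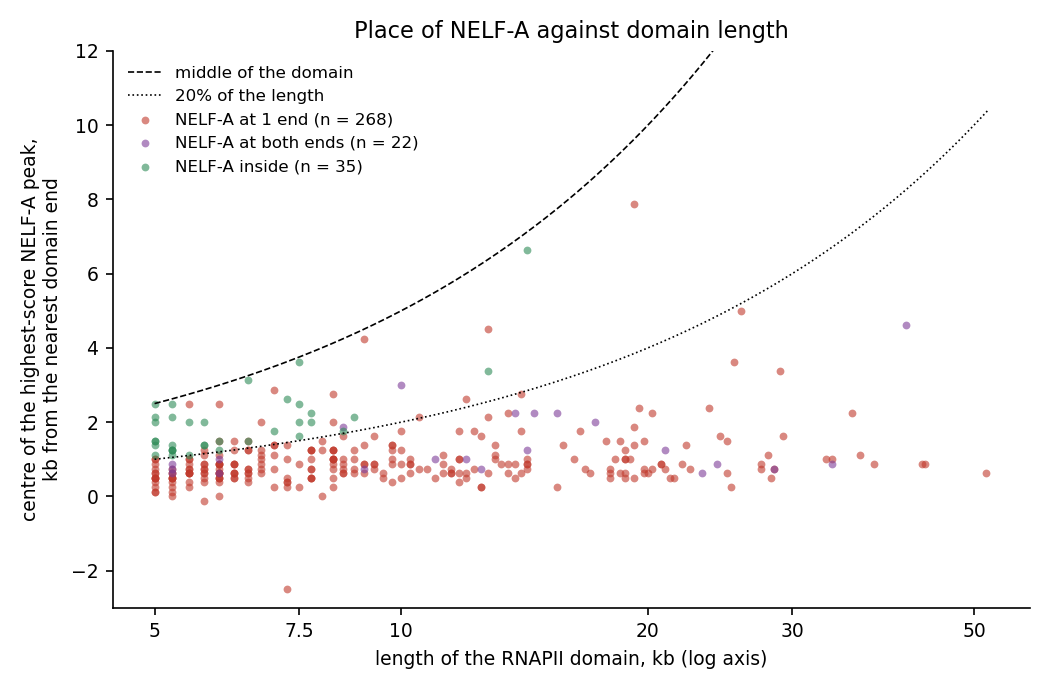
Distance in kb of the centre of the highest-score NELF-A peak from the nearest domain end (y axis, negative beyond the end) against the length of the long RNAPII domain in kb (x axis, log scale), 1 point per domain, coloured by whether NELF-A lay at 1 end (268), at both ends (22) or inside (35). The points stay near 1 kb across the lengths, with class medians of 750, 1000 and 937.5 bp, while the line at 20% of the length climbs; points of the 1-end class above that line are domains whose highest-score NELF-A peak is not the peak at the end.

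Long domains were then classed by where NELF-A peaks were centred, with an end zone of the outer 20% or beyond that end. NELF-A lay at 1 end of 268 domains (64.0%), at both ends of 22 (5.25%), inside alone in 35 (8.35%) and was not listed in 94 (22.4%). A domain with a single NELF-A peak cannot have it at both ends, and 189 of the 268 held just 1. Among domains with more than 1 NELF-A peak, 79 had NELF-A at 1 end, 22 at both ends and 6 inside alone. The end with NELF-A was the lower coordinate in 136 of the 1-end domains and the higher coordinate in 132. NELF-A at 1 end was the most frequent class in all 3 classes of length: 56.5% of domains of 5 to 7.25 kb, 64.6% of those of 7.5 to 12.25 kb and 75.9% of those of over 12.25 kb. The share with no NELF-A was 27.2%, 25.2% and 11.1% over the same classes, and the share with NELF-A at both ends 2.72%, 3.94% and 11.1%. The end zone widens with length, while the highest-score NELF-A peak stayed at a similar distance from the end. How much of the rise at 1 end and at both ends follows from the wider zone was not tested. Median length was 8500 bp with NELF-A at 1 end, 13125 bp at both ends, 5750 bp inside and 7250 bp with no NELF-A. The RNAPII score per kb also differed between classes, with medians of 410, 504, 416 and 296 in that order.

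**Figure D2:**
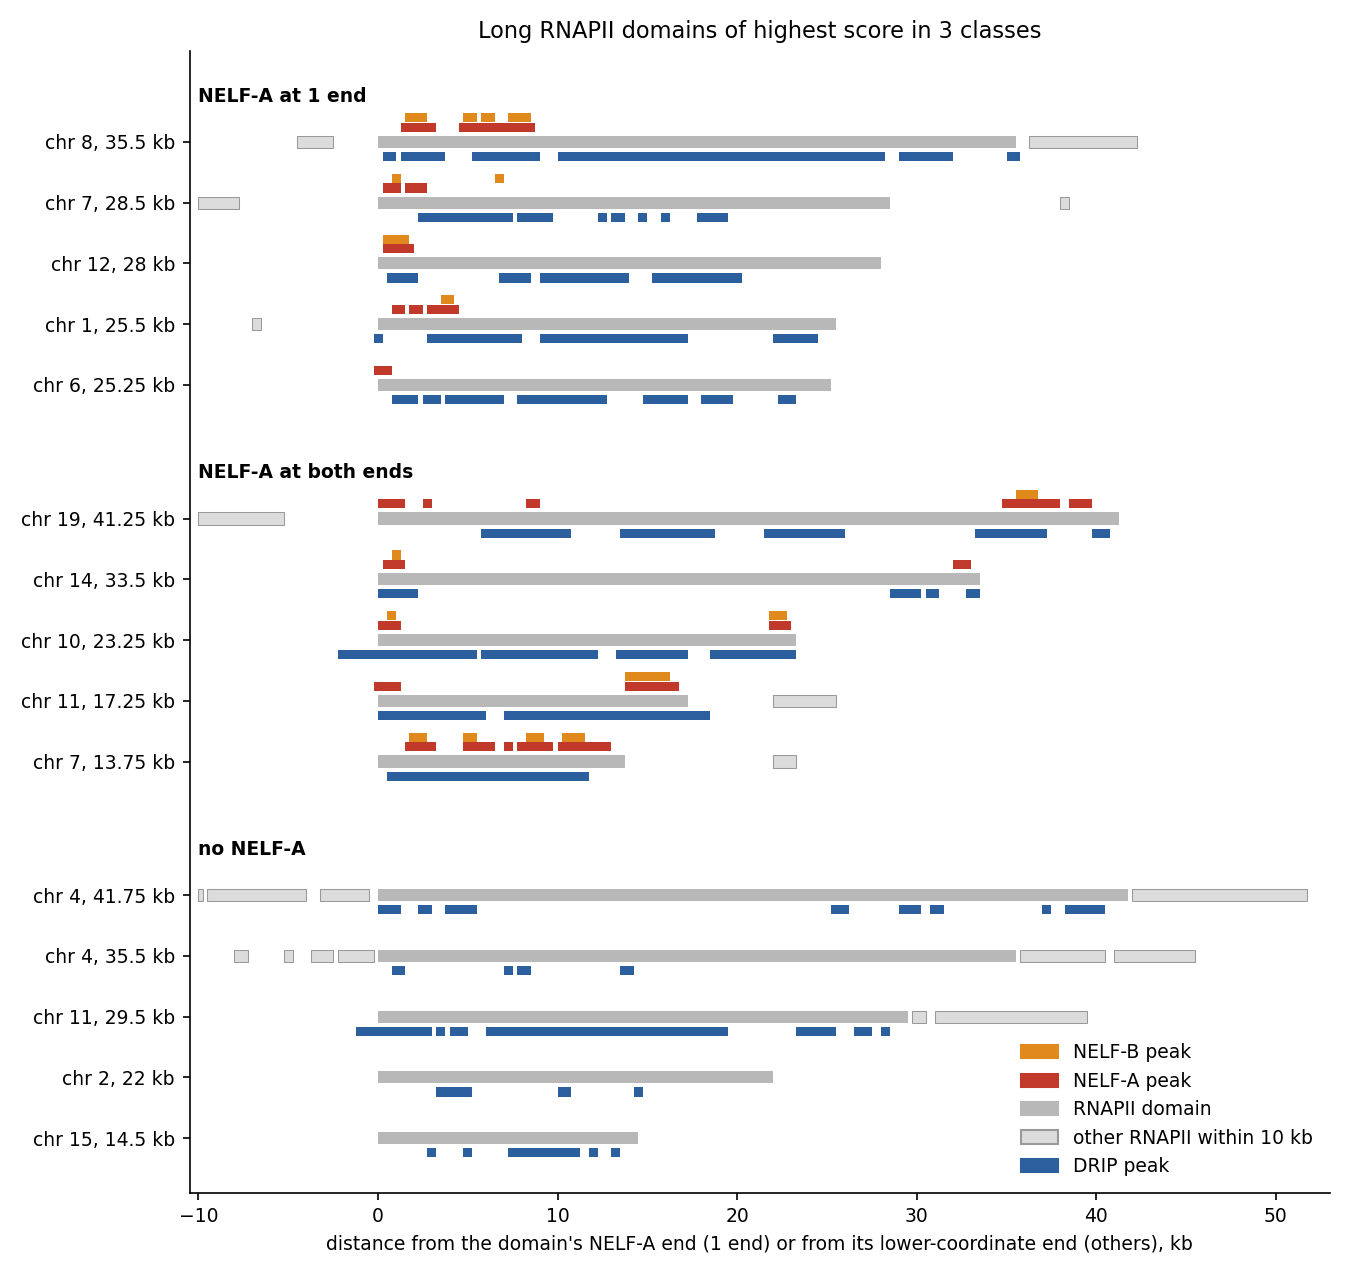
The 5 long RNAPII domains of highest score with NELF-A at 1 end, at both ends and with no NELF-A, drawn to scale in kb from the NELF-A end (1 end) or from the lower-coordinate end (others), with NELF-B and NELF-A peaks above the domain, DRIP peaks below it and other RNAPII domains within 10 kb in light grey, clipped at that distance. NELF-A lies near the left end in the first group by the class rule, and DRIP peaks also lie away from the ends in all 3 groups. In the domains drawn with no NELF-A, DRIP covers from 7.75% of the length (chromosome 4, 35.5 kb) to 73.7% (chromosome 11, 29.5 kb). In the domains of chromosome 4 with no NELF-A, 4 and 6 other RNAPII domains lie close by.

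R-loop signal was more frequent where NELF-A lay at an end than where it was missing. DRIP was present on 226 of 268 domains with NELF-A at 1 end (84.3%, 79.5 to 88.2%) and on 52 of 94 with no NELF-A (55.3%, 45.3 to 65.0%), a difference of 29.0 points (18.2 to 39.8). With NELF-A at both ends it was 19 of 22 (86.4%), and with NELF-A inside 24 of 35 (68.6%). DRIP covered 34.8% of the length with NELF-A at 1 end, 49.5% at both ends, 39.96% inside and 20.8% with no NELF-A. The classes differ in length and in RNAPII score, so the difference was taken again within each. Between domains with NELF-A at 1 end and domains with no NELF-A it was 29.96 points (13.6 to 44.8) at 5 to 7.25 kb and 26.5 points (9.62 to 44.5) at 7.5 to 12.25 kb. At over 12.25 kb it was 15.2 points (−2.89 to 43.9), and there 12 domains had no NELF-A. Long domains were also split into 3 classes of near equal size by RNAPII score per kb. Within the lowest class, up to 344, the difference was 29.6 points (13.7 to 43.5). Within the highest class, above 456, it was 25.04 points (2.58 to 53.7). In the middle class it was 18.8 points (−2.27 to 43.5), with 16 domains that had no NELF-A, so there and in the longest domains an interval that includes 0 leaves the difference undetected at these numbers.

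**Figure D3:**
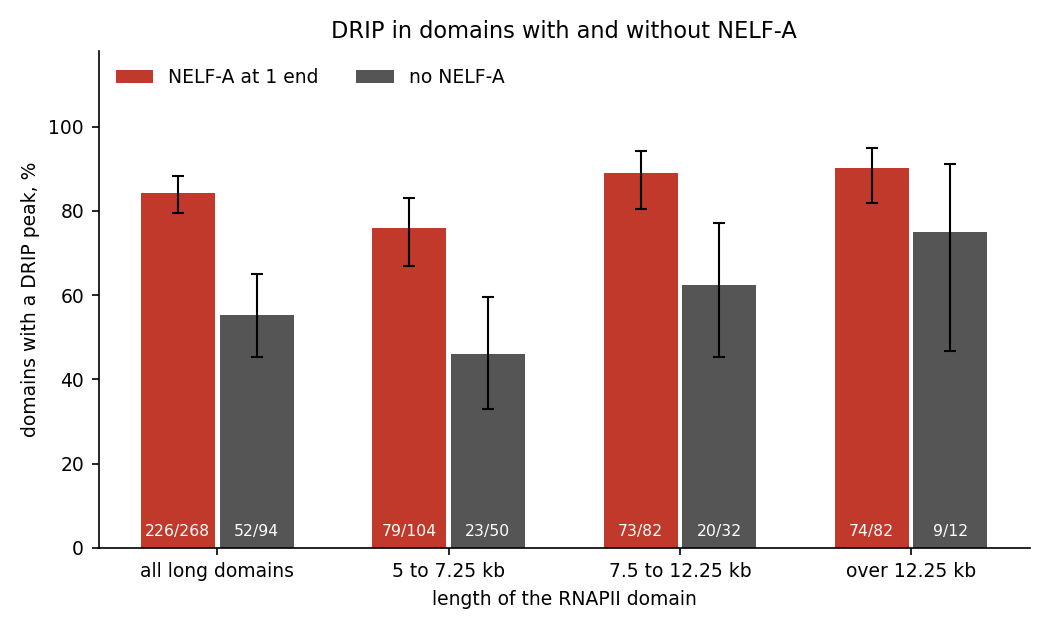
Share of long RNAPII domains that overlap a DRIP peak, in percent, as bars from 0 with 95% Wilson intervals as error bars, for domains with NELF-A at 1 end and domains with no NELF-A, over all long domains and by length class; the numbers of domains stand in the bars. Domains with NELF-A at 1 end are at 76.0%, 89.0% and 90.2% in the 3 length classes, and domains with no NELF-A at 46%, 62.5% and 75%, with the intervals of the longest class overlapping.

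In the 268 domains with NELF-A at 1 end, DRIP lay on the NELF-A side and reached far into the domain. DRIP covered on average 45.2% of the side up to the midpoint that holds the NELF-A end and 24.5% of the far side. Cover was higher on the NELF-A side in 172 of the 214 domains with a difference (80.4%, 74.5 to 85.1%), and the other 54 showed none. This share was 76.7%, 82.9% and 81.7% from the shortest to the longest class of long domains. It was 84.1% where NELF-A lay at the lower coordinate and 76.2% where it lay at the higher one. Next shorter domains, turned in the same way, had more DRIP on the NELF-A side in 49 of 74 (66.2%, 54.9 to 76.0%). The difference, long minus next shorter, was 14.2 points (2.81 to 26.5). Of the 184 next shorter domains, 110 showed no difference between sides, with DRIP or without it. With a median width of 1250 bp there, 1 DRIP peak can span both sides of a short domain. How much this adds to the 14.2 points was not tested.

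These domains were classed and turned by a NELF-A peak at 1 end and none at the other. High NELF-A cover at the start and low NELF-A cover at the far end therefore follow from the class. In long domains 295 of 301 NELF-B peaks overlapped a NELF-A peak, so the NELF-B profile is not independent of the class either. DRIP had no part in the class. Going inward from the NELF-A end, NELF fell away within the first 4 kb and DRIP did not. NELF-A covered 79.2% of the first kb, 54.3% of the second, 20.5% of the next and 8.21% of the one after. NELF-B covered 42.6%, 26.9%, 5.97% and 2.43% of the same steps. DRIP covered 41.8% of the first kb, 54.3% of the second and 52.6% of the third, then 38.8% and 33.6%. From there to 25 kb it stood between 18.0% and 35.2% per step, while the number of domains long enough fell to 20. Later steps hold longer domains alone, so this range mixes lengths. Within the class of 5 to 7.25 kb, DRIP covered 12.9% between 5 and 6 kb. Within that of 7.5 to 12.25 kb, it covered 13.4% between 9 and 10 kb. Counted from the far end of the 110 domains of 10 kb or more, DRIP covered 10.2%, 16.6%, 19.8%, 23.2% and 26.6% of the first 5 kb, and NELF-A 0.909% of the outermost kb. DRIP thus thinned out towards the far end and seldom reached it.

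**Figure D4:**
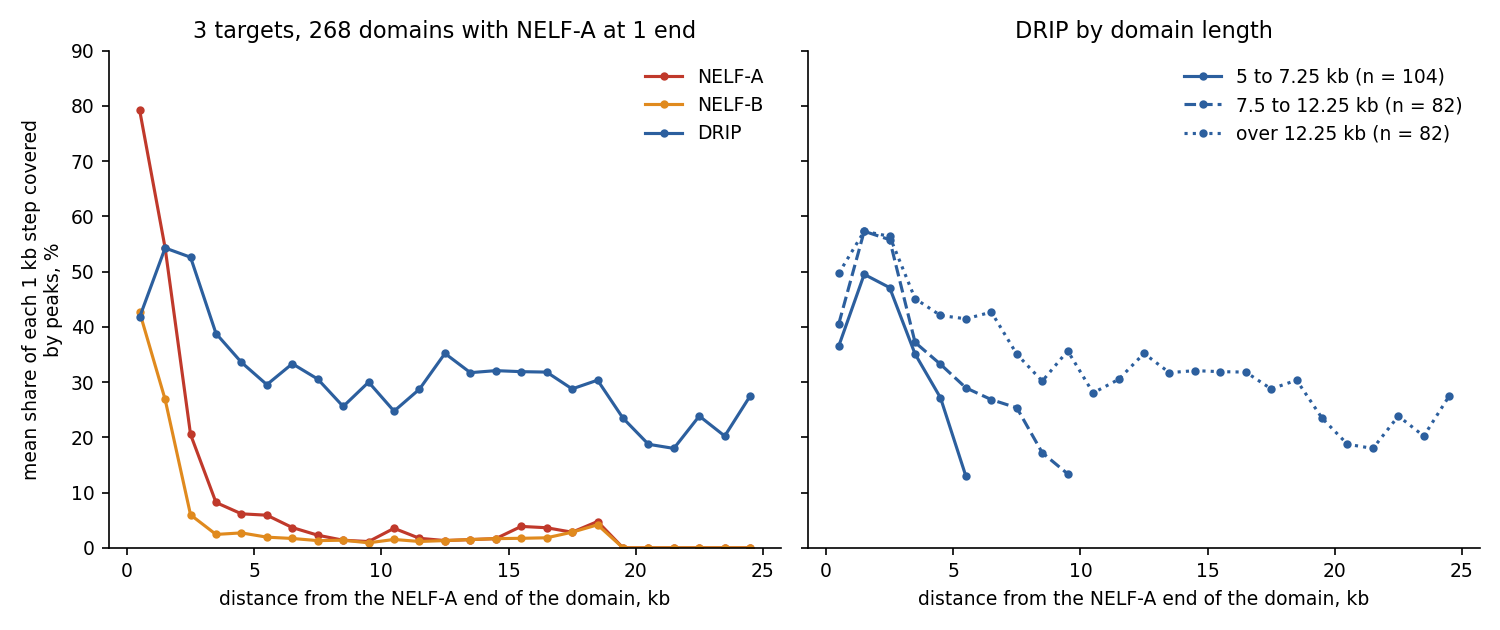
Percent of each 1 kb step covered by peaks, averaged over long RNAPII domains with NELF-A at 1 end, against distance in kb from the NELF-A end; the left panel shows NELF-A, NELF-B and DRIP over all lengths and the right panel DRIP by length class, and steps with fewer than 20 domains are not drawn. Over all lengths, NELF-A starts at 79.2% and is at 8.21% between 3 and 4 kb. DRIP over all lengths is highest at 54.3% between 1 and 2 kb and stays between 18.0% and 35.2% beyond 5 kb, where shorter domains drop out. By length class, the last step drawn is at 12.9% for 5 to 7.25 kb and 13.4% for 7.5 to 12.25 kb. The high NELF-A cover at the start follows from how these domains were classed, and the NELF-B profile is not independent of it.

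Among the 226 of these domains with DRIP, the NELF-A peak at the end overlapped a DRIP peak in 162 (71.7%, 65.5 to 77.2%), and DRIP came within 1000 bp of it in 200 (88.5%). Of the 527 DRIP peaks, 453 (86.0%, 82.7 to 88.7%) were centred inward of the NELF-A peak at the end. In 152 domains (67.3%) all DRIP peaks were. The NELF-A peak at the end lies in the end zone by the class rule, so most of the domain is inward of it. The shares that an even spread of DRIP peaks would give were not computed, so whether DRIP favours the inward side was not tested. The last base under DRIP lay a median of 5500 bp from the NELF-A end, or 68.9% of the length. It lay at 4250 bp in domains of 5 to 7.25 kb, 6250 bp in those of 7.5 to 12.25 kb and 13125 bp in those of over 12.25 kb. As a share of length these were 65.5%, 64.6% and 73.6%. DRIP reached the far end itself in 33 domains (14.6%).

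All 244 NELF-B peaks of the 1-end domains were set against the nearest NELF-A peak of the domain, at the end or not. The centre of NELF-B was offset by a median of 0 bp along the domain, with quartiles 250 bp outward and 125 bp inward. It was outward in 104 of 244 cases, inward in 89 and at the same position in 51. Further NELF-A peaks outside the end zone were present in 66 of the 1-end domains. The NELF-A peak at the end had the higher score in 51 of these 66 (77.3%, 65.8 to 85.7%). Its median score was 69.5, against 15 for the 82 NELF-A peaks outside the end zone.

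In the 22 domains with NELF-A at both ends, the end peaks were a median of 10000 bp apart (3375 to 35875 bp) and of unequal score. The higher of both scored a median of 92 and the lower 20, and the ratio within a domain had a median of 3.81, from 1.11 to 20.8. This ratio cannot be below 1, because the ends were ordered by score. Whether the ends were more unequal than other pairs of NELF-A peaks was not tested. Turned by the end with the higher NELF-A score, DRIP covered on average 55.7% of the side up to the midpoint at that end and 43.4% of the other side. It covered more of the higher-score side in 13 of the 18 domains with a difference (72.2%, 49.1 to 87.5%), an interval that includes 50%, so a side was not detectable with 18 domains. In the 35 domains with NELF-A inside alone, the highest-score NELF-A peak was centred a median of 1750 bp from the nearest end, or 26.5% of the length. The lower quartile was 23.8% of the length, close to the 20% that bounds the end zone.

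Long domains were often part of a row of RNAPII domains. Another joined RNAPII domain lay within 10 kb of 289 of the 419 (69.0%, 64.4 to 73.2%), where 37.2% of all joined domains had one. The share in long domains was 8.71 points above that in the next shorter domains (2.87 to 14.4). Of the long domains, 120 had 1 such neighbour, 63 had 2 and 106 had 3 or more, up to 9. Another long domain was among the neighbours of 119.

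Neighbours lay beyond the far end more often than beyond the NELF-A end. Of the 268 domains with NELF-A at 1 end, 40 (14.9%) had an RNAPII neighbour on the NELF-A side, 143 (53.4%) on the far side, 18 of them on both, and 103 on neither. Of the 147 with neighbours on 1 side alone, 125 had them on the far side (85.0%, 78.4 to 89.9%). The share was 90.6%, 82.0% and 78.8% from the shortest to the longest class. Next shorter domains had a like share, 74 of 86 (86.0%), and the difference of −1.01 points (−9.83 to 9.11) does not set long domains apart. The nearest neighbour on the NELF-A side was a median of 2750 bp away, with 8 of 40 under 1000 bp. On the far side it was 750 bp away, with 88 of 143 (61.5%) under 1000 bp. On the far side, 69 domains had 1 neighbour and 74 had 2 or more.

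The neighbours on either side differed in NELF and not detectably in DRIP. On the NELF-A side, 32 of 48 neighbours held NELF-A (66.7%, 52.5 to 78.3%), against 31 of 284 on the far side (10.9%, 7.80 to 15.1%), a difference of 55.8 points (41.0 to 67.8). The share over all joined RNAPII domains, 74.6%, lies within the interval of the NELF-A side and above that of the far side. Neighbours of next shorter domains held NELF-A in 14 of 19 cases (73.7%) beyond the NELF-A end and 14 of 137 (10.2%) beyond the far end, and whether the split differs from that of long domains was not tested. NELF-B was on 18 (37.5%) of the NELF-A side and 16 (5.63%) of the far side (31.9 points, 19.1 to 46.2). DRIP was on 11 (22.9%) of the NELF-A side and 82 (28.9%) of the far side (−5.96 points, −17.0 to 8.54), where 22.2% of all joined domains had it. Neighbours on both sides had a median length of 1500 bp, with median scores per kb of 264 on the NELF-A side and 229 on the far side.

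**Figure D5:**
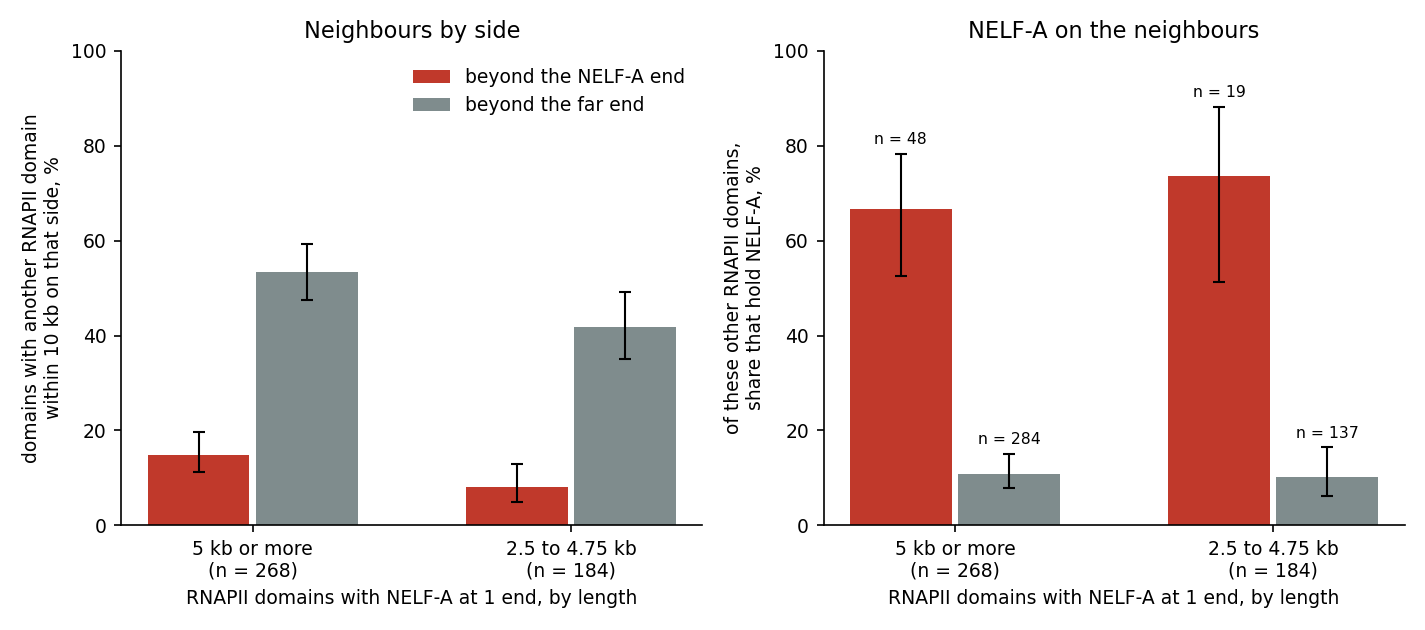
Left, percent of RNAPII domains with NELF-A at 1 end that have another RNAPII domain within 10 kb beyond the NELF-A end and beyond the far end, for long and next shorter domains; right, percent of those neighbours that hold NELF-A, with 95% Wilson intervals as error bars and the numbers of neighbours above the bars. Of long domains 14.9% have a neighbour on the NELF-A side and 53.4% on the far side, and 66.7% of NELF-A side neighbours hold NELF-A against 10.9% on the far side. The sides were set by NELF-A, and the part of this rule in the right panel was not tested.

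The 94 long domains with no NELF-A peak mostly stood next to other RNAPII domains. A neighbour within 10 kb was present for 87 of 94 (92.6%, 85.4 to 96.3%), against 165 of 268 domains with NELF-A at 1 end (61.6%, 55.6 to 67.2%). The difference, NELF-A at 1 end minus no NELF-A, was −31.0 points (−38.0 to −21.9). It was −28.6, −29.1 and −29.7 points from the shortest to the longest class, with an interval that just included 0 in the longest (−45.7 to 0.317). By RNAPII score per kb it was −28.8 points (−40.8 to −17.1) in the lowest class, −8.33 points (−23.9 to 17.2) in the middle one and −26.5 points (−46.3 to 4.28) in the highest one. Their low median score per kb of 296 moves with the lack of NELF-A, and its part in the result beyond these values was not tested.

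For the domains with no NELF-A, the nearest RNAPII domain that held NELF-A lay a median of 7500 bp away, with quartiles of 750 and 19375 bp. It was within 10 kb of 56 (59.6%), within 20 kb of 71 (75.5%) and within 50 kb of 83 (88.3%). Among the 71 within 20 kb, the nearest domain with NELF-A had it at 1 end in 56 cases, and the long domain with no NELF-A lay beyond the far end of it in 54 of those 56 (96.4%, 87.9 to 99.0%). Some of these pairs are also counted among the far-side neighbours above, and the limit given there for sides set by NELF-A holds here too. In these 71 domains a side with more DRIP was not detectable: DRIP covered on average 22.4% of the side towards the nearest NELF-A domain and 19.5% of the other, and cover was higher on the side towards the nearest NELF-A domain in 22 of 38 domains with a difference (57.9%, 42.2 to 72.1%). NELF-A peaks outside any RNAPII domain lay within 10 kb of 5 of the 94. Just 7 of the 94 had no RNAPII neighbour within 10 kb. Of these 7, the domain of 22 kb on chromosome 2 from 51893251 to 51915250 had the highest RNAPII score, 20881, with 3 DRIP peaks over 14.8% of its length. The domain of 14.5 kb on chromosome 15 from 101820751 to 101835250 followed with 9208 and 5 DRIP peaks over 41.4%.

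Single domains show how the marks were laid out. The widest, 51.75 kb on chromosome 11 from 49607251 to 49659000, held 1 NELF-A peak, centred 0.625 kb from the lower end and with a score of 21, and no NELF-B. Its 5 DRIP peaks were centred 0.25, 12.625, 14.125, 18.25 and 36.75 kb along and covered 8.70% of it. A short RNAPII domain of 1500 bp followed 250 bp beyond the far end. The NELF-A score was below the median of 52 for long domains, and DRIP was sparse but spread over much of the length.

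The domain of 43.5 kb on chromosome 10 from 117240251 to 117283750 went against the common side. NELF-A (score 103) was centred 0.875 kb from the higher end, with NELF-B peaks at 0.375 and 1 kb. A DRIP peak of 2.5 kb covered that end, and the other 8 DRIP peaks lay 16.5 to 38.25 kb inward. DRIP covered 14.9% of the NELF-A side and 34.5% of the far side.

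The domain on chromosome 19 from 5809501 to 5850750, of 41.25 kb, had the highest RNAPII score of all, 43948, with NELF-A at both ends. The higher-coordinate end held the NELF-A peak with a score of 188, and a NELF-B peak lay on it. The lower-coordinate end held a NELF-A peak with a score of 28. Its 8 DRIP peaks covered 47.9%, and the one with the highest score, 1026, overlapped the NELF-A peak with a score of 188. The highest-score NELF-A and DRIP peaks and the only NELF-B peak of this domain thus lay towards the higher coordinate. DRIP peaks of 5000 and 5250 bp lay on the lower-coordinate side.

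On chromosome 8 from 86719751 to 86755250, 35.5 kb, 4 NELF-A and 5 NELF-B peaks lay between 1.25 and 8.75 kb from the NELF-A end. DRIP covered 81.0% of this domain, in the main through 1 peak of 18.25 kb. NELF-A peaks were as many as 6 on chromosome 7 from 29155501 to 29169250, a domain of 13.75 kb with 4 NELF-B peaks, where NELF-A covered 65.5% of the length and a single DRIP peak of 11.25 kb covered 81.8%. In contrast, the domain of 36.25 kb on chromosome 2 from 155970751 to 156007000 had NELF-A (score 125) and NELF-B (score 33) at its higher-coordinate end and no DRIP peak. Wide RNAPII domains with strong NELF at an end were thus found with DRIP over most of the length and with none.

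Among domains with no NELF-A, the widest was that on chromosome 4 from 134774251 to 134816000, 41.75 kb, with 8 DRIP peaks over 22.8% of the length and 4 RNAPII neighbours. Of those neighbours, the domain of 13.5 kb from 134816251 to 134829750 was itself long and held 2 NELF-A peaks, with NELF-A at 1 end. A domain of 29.5 kb on chromosome 11 from 100741251 to 100770750 also had no NELF-A, and its 9 DRIP peaks covered 73.7%. Most DRIP peaks in any long domain, 11, were found on chromosome 11 from 51396751 to 51421000, with NELF-A at both ends and 33.0% of the length under DRIP. The most neighbours, 9, surrounded a domain of 5 kb on chromosome 3 from 135334751 to 135339750 with no NELF-A and 1 DRIP peak. The domain on chromosome 17 from 39979751 to 39986250 stood apart. NELF-A and NELF-B covered 96.2% of its 6.5 kb and DRIP all of it, with scores of 3128, 1092 and 8366. It is one of 11 long domains that overlap a region of extra-high signal in at least 3 of the 4 lists.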

How the data were processed

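The authors deposited 1 peak list per target. Per the submitters' processing notes, BWA and the mm9 build were used. For the peak caller, its threshold, any input and the pooling of libraries, details were not given in the sources used here. The deposited lists give a chromosome, first base, last base and a whole-number score per peak, on a 250 bp grid. The score is the authors' own value, and it is used to describe and rank peaks within 1 list. Score per kb is the summed score of the joined peaks over their length.

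RNAPII peaks with a gap of 0 bp were joined; NELF-A, NELF-B and DRIP peaks were kept as deposited and counted on a domain at an overlap of 1 bp or more. A peak lies at an end where its centre is in the outer 20% of the length or beyond that end. Neighbours are other joined RNAPII domains whose nearest base lies within 10 kb. Intervals are at 95% confidence; no p-value was computed, since domains are not replicates. A region of extra-high signal is one where 3 or more lists have a peak that ranks in their top 1% by score per base or among their 10 highest scores.

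The domains, the classes and the lists were chosen with earlier results of these data known. Domains were named by rule: the 10 widest, the 5 of highest score per kb, the 5 of highest score in each class, and the 5 with most NELF-A peaks, DRIP peaks or neighbours; the text gives some of them. Gene names and sequences are not used here, because the gene tables at hand are of another build than mm9. Counting was tested on simulated data with planted peaks, all of which were recovered. Python 3.11.15, NumPy 2.4.6, SciPy 1.17.1 and matplotlib 3.10.9 were used.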

Additional observations from a re-analysis of the deposited data

How the results depend on the processing

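Of 180 values computed again under other settings, 135 held, 43 moved further and 2 intervals came to include 0. A share held if it stayed within its counting interval, and a count if it moved by 1.5 times or less. The DRIP difference between NELF-A at 1 end and no NELF-A held if its interval still excluded 0. A change of direction could be seen only in that difference, and there was none. Some values could not move under some settings, such as the share with a neighbour under another overlap rule. All values held when 50% of the shorter interval had to overlap, when touching NELF-A, NELF-B and DRIP peaks were joined, and without the X chromosome or the regions of extra-high signal. With the upper 50% of each list by score, NELF-A was on 67.8%, NELF-B on 51.8% and DRIP on 71.4% of long domains, 81.4% of NELF-A peaks were at an end, and 10 domains had NELF-A at both ends. With peaks joined up to 1000 bp apart, NELF-A was on 84.3% and NELF-B on 65.6% of 471 domains, 84.6% of NELF-B peaks were at an end, 38 domains had NELF-A at both ends, and 48.4% had a neighbour. From 3000 bp up (830 domains), NELF-A was on 73.1%, NELF-B on 53.01% and DRIP on 65.2%, 56.2% of the NELF-A peaks and 61.8% of the NELF-B peaks were at an end, and 223 domains had no NELF-A. From 10000 bp up (150 domains), these shares were 84.7%, 70% and 86% of domains and 75.6% and 83.5% of peaks, 110 domains had NELF-A at 1 end and 23 none, and 60.7% had a neighbour. With end zones of 10%, 41.8% of NELF-A, 48.1% of NELF-B and 18.1% of DRIP peaks were at an end and 9 domains had NELF-A at both. With 25% these shares were 79.6%, 87.5% and 49.7%; with 1000 bp 49.0%, 55.9% and 17.1%, and 10 domains had both; with any base in the zone 81.7%, 86.9% and 58.9%. An even spread gives another share under each of these zones, so the 40% of the main setting does not apply to them. Classed by NELF-B, 3 domains had it at both ends and 168 had none. A neighbour was found for 61.3% within 5 kb and 76.4% within 20 kb. The difference in DRIP between NELF-A at 1 end and no NELF-A had an interval that included 0 in the middle class of score per kb (18.75 points, −2.27 to 43.5) and at lengths over 12.25 kb (15.2 points, −2.89 to 43.9), with 16 and 12 domains that had no NELF-A. The share with more DRIP on the NELF-A side and the share of neighbours beyond the far end held under all settings tried for them. The splits by score per kb and by length and the restriction to 1 NELF-A peak were chosen after seeing the data. No replicate could be left out, and no paired analysis was possible because each target has 1 list.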

Other observations

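Outside the long domains, within 10 kb of either end, NELF-A peaks lay near 69 of 268 domains with NELF-A at 1 end (25.7%, 20.9 to 31.3%) and near 37 of 94 with no NELF-A (39.4%, 30.1 to 49.5%). DRIP peaks outside the domain lay near 89 of the 268 (33.2%, 27.8 to 39.0%) and near 60 of the 94 (63.8%, 53.8 to 72.8%). Counting only DRIP peaks that overlap no RNAPII domain, the numbers were 48 of 268 (17.9%, 13.8 to 22.9%) with NELF-A at 1 end and 19 of 94 (20.2%, 13.3 to 29.4%) with no NELF-A. Most of the gap in nearby DRIP thus lay on other RNAPII domains, which were within 10 kb of 61.6% of domains with NELF-A at 1 end and of 92.6% of those with no NELF-A. Domains with NELF-A inside alone had DRIP outside the domain in 20 of 35 cases (57.1%), and those with NELF-A at both ends in 5 of 22 (22.7%).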
